A study of Schizosaccharomyces pombe with 6 samples.

Results

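RNA that co-purified with Mtl1-FTP was measured against total RNA of the same strain in fission yeast (Schizosaccharomyces pombe). The members are the 2 arrays whose labels name Mtl1-FTP as the bait, of 6 arrays in all, and 174054 of the 174063 tile probes gave a ratio on both. The study tested subunits of MTREC, and the other 4 arrays carry its Red1-FTP and Red5-FTP purifications, 2 each. All strains grew in the rich medium YEA at 30 °C, and each carried the C-terminal tag Flag-TEV-protein A (FTP) on a single bait. The strain labels are p920 for Mtl1-FTP, p919 for Red1-FTP and p1160 for Red5-FTP. In the paper's strain list all of them carry leu1 and ura4 mutations. The Red5-FTP strain has another mating type and another ade6 allele than the Mtl1-FTP and Red1-FTP strains. For Red5-FTP these cannot be told apart from the bait. Each bait was purified in 2 biological replicates. On each array the purified RNA (IP) carried Cy5 and the total RNA (input) carried Cy3, and log2 ratios above 0 mean more of an RNA in the IP than in the input, relative to the array median. The dyes were not swapped and a purification without a tag is not analysed here. Binding to the beads or the tag thus cannot be told apart from binding to Mtl1 or to proteins purified with it. The paper reports that each of these baits brought down the whole of MTREC.

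Mtl1 is an RNA helicase related to Mtr4, the helicase that threads RNA into the nuclear exosome. The exosome is a degradation machine that removes RNA from its 3′ end. Together with the zinc-finger protein Red1, Mtl1 forms the core of MTREC, which hands cryptic unstable transcripts and meiotic mRNAs to the exosome, and Red5 is a further subunit. Cryptic unstable transcripts often start next to genes and run away from them, or run across them on the opposite strand. No sequence, gene or genomic position is given for the probes in the files analysed. RNAs are therefore named by probe number, in the order of the tiling, and no gene is named.

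Probe numbers up to 147000 form a densely tiled part, where odd and even numbers lie on opposite strands. The number is where the correlation between inputs 8 probes apart dropped, with a median r of 0.0965 in the bins of 1000 probes after it and 0.53 in those before it. Input signals correlated at an r of 0.72 between probes 2 numbers apart and at -0.19 between neighbours, over the 147000 probes. The remaining 27063 probes form a sparsely tiled part, and unless stated otherwise the values below are from the dense part. On Mtl1-FTP replicate 1 the IP was well above background at 57.9% of the tile probes and the input at 47.2%. On replicate 2 these shares were 62.4% for the IP and 57.5% for the input. The IP alone was well above background at 12.9% of the probes on replicate 1 and at 9.64% on replicate 2, and the ratios of such probes have a denominator at background. Neither channel was well above background at 39.9% of the probes on replicate 1 and 32.9% on replicate 2. Such probes also enter the array median, to which all ratios are relative. No tile probe was saturated. Among 300 tile probes printed in further copies, the median SD of the copies was 0.24 in log2 on each Mtl1-FTP array.

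Both Mtl1-FTP arrays gave closely related profiles. Across 14700 windows of 10 same-strand probes, their log2 ratios correlated with a Pearson r of 0.904 and a Spearman rho of 0.866. Over single probes of the whole array r was 0.823, and over the 76000 probes well above background in both channels on both arrays it was 0.869. These values are across probes of the same pair of arrays, and neighbouring probes share RNA. Replicate 2 minus replicate 1 had a median of -0.14 over the windows, with an SD of 0.41, and differed by more than 1 in either direction in 2.99% of them. Opposite signs beyond 0.5 occurred in 19 windows. The widest drop was at the window that starts at sp40c_19461, with 1.01 on replicate 1 and -0.96 on replicate 2. The widest gain was at sp40c_111701, with 0.62 on replicate 1 and 2.30 on replicate 2. The replicates were hybridised on different slides, and a difference between slides cannot be told apart from one between cultures.

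The first question was how much of the tiled genome was enriched with Mtl1-FTP. With limma over all 6 arrays, 4042 windows (27.5%) had a log2 ratio above 0 and 917 (6.24%) below 0 at an adjusted p under 0.05. The median was 1.20 for the enriched windows and -0.88 for the depleted ones, against 0.16 over all windows. All of the called windows had the same sign on both Mtl1-FTP arrays. Of 174036 single probes tested on the whole array, 14.7% were enriched and 3.71% depleted. A call is relative to the median of its array. Centred on the array mean instead, which lies 0.39 above the median on replicate 1 and 0.23 above it on replicate 2, 2763 windows were enriched and 3287 depleted. Without replicate 1, 2015 windows were enriched and 392 depleted, and without replicate 2, 1752 were enriched and 23 depleted. The depleted windows thus rested largely on replicate 2.

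A stricter description counted probes that passed a log2 ratio of 1 on both Mtl1-FTP arrays. In the dense part 18617 probes (12.7%) had ratios above 1 and an IP well above background on both arrays. Ratios below -1, at probes whose input passed background on both arrays, were found at 3741 probes (2.54%). In the sparse part 12.7% of probes were enriched and 2.75% depleted by the same rule.

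Abundance of each RNA was read from the inputs of the Red1-FTP and Red5-FTP arrays, which did not enter the Mtl1-FTP ratios. In the lowest decile of input, the mean log2 ratio was 0.07 on replicate 1 and -0.0011 on replicate 2, and the Mtl1-FTP IP was well above background at only 1.60% of the probes. In decile 3 the means were 1.07 and 1.10, with the IP well above background at 29.9% of the probes and the input at 3.27%. From there the means fell with abundance, to 0.48 and 0.31 in decile 6 and -0.0023 and -0.24 in decile 10. Enriched probes made up 24.6% of decile 5 and 5.03% of decile 10, where the input was well above background at all probes. Deciles 3 to 6 thus held most of the enriched probes, and in deciles 3 and 4 most of their ratios have no measured denominator.

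The study asked which kinds of transcripts MTREC binds. The position of the enriched RNA was therefore measured around transcribed stretches. These are runs of 10 or more same-strand probes at which all 4 Red1-FTP and Red5-FTP arrays had input well above background, with little input on the opposite strand. There were 1409 such stretches, with a median of 22 probes. Side A is the side where stretches on opposite strands face each other across wider gaps (a median of 17 probes over 346 gaps), and side B is the side with the narrower gaps (4 probes, 347 gaps). The flanks are the 10 probes outside an end, where neither strand had much input, and there were 453 on side A and 163 on side B.

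With Mtl1-FTP, the mean ratio of the transcribed strand was close to the array median. That of the opposite strand was higher, most of all outside the stretches. The rule for stretches and flanks also sorted the Mtl1-FTP input. It was above background at 95.8% of transcribed spots and 23.1% of opposite spots. Ratios fell with abundance from decile 3 on, so the order of these classes is not independent of the choice. The part of the choice was not tested. Inside stretches the transcribed strand had a mean log2 ratio of 0.10 on replicate 1 and -0.05 on replicate 2. The opposite strand of the same stretches had 0.51 and 0.31. These are means, and the median probe opposite to a stretch lay at the array median, with -6.6e-05 and 0.011. The median probe of the transcribed strand had -0.03 and -0.27. Of the probes opposite to a stretch, 17.9% on replicate 1 and 12.7% on replicate 2 had only the IP above background. Beyond side A the opposite strand reached 0.96 on replicate 1 and 1.12 on replicate 2, and beyond side B 1.11 and 1.27. The transcribed strand had 0.61 and 0.71 beyond side A and 0.49 and 0.58 beyond side B. On both arrays the class with the highest mean was the opposite strand beyond side B, and the lowest was the transcribed strand inside. The side B mean rests on 163 flanks and the side A mean on 453. Over all flanks, with or without input, the order of the sides was the other way. The median probe of the opposite strand had 0.14 and 0.31 beyond side A, and 0.08 and 0.17 beyond side B. The opposite strand inside lay above the transcribed strand beyond side B on replicate 1 only. Inside stretches replicate 2 was lower than replicate 1 on both strands, and outside them it was higher.

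**Figure D1:**
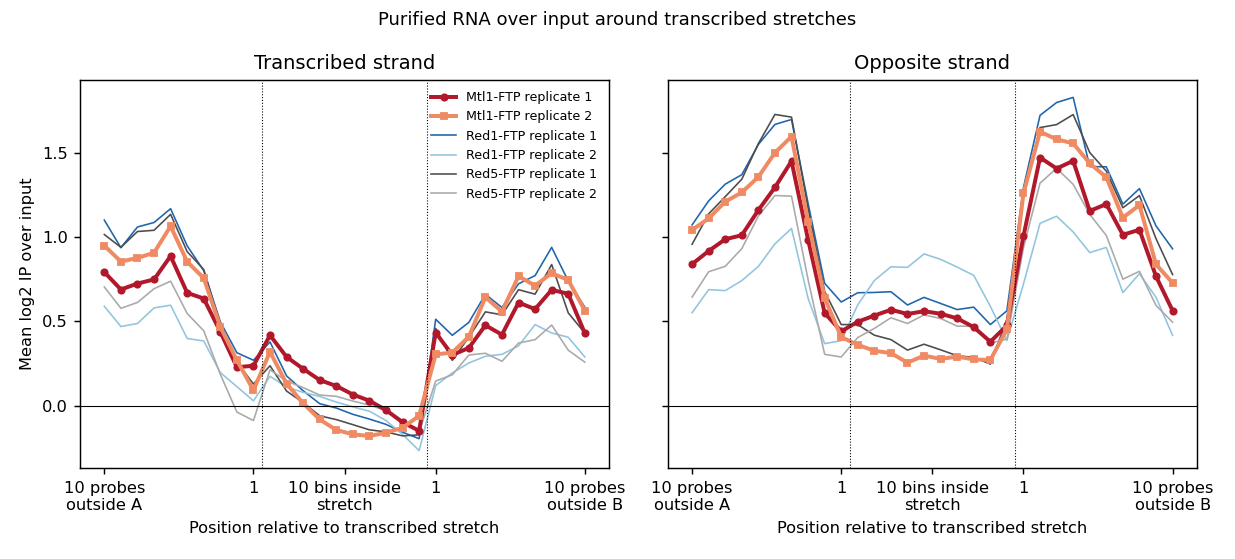
Mean log2 IP over input (vertical axis) at 10 probes outside side A, in 10 bins inside the stretch and at 10 probes outside side B (horizontal axis), on the transcribed strand (left) and the opposite strand (right). Each line is 1 array, thick for Mtl1-FTP, and the opposite strand of both Mtl1-FTP arrays reaches at least 1.45 a few probes outside either end of the stretches.

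The ratio also changed along the transcribed strand. In the first bin from side A it was 0.42 on replicate 1 and 0.32 on replicate 2, and in the last bin before side B it was -0.15 and -0.06. On replicate 2 the lowest bin was the seventh from side A, at -0.18. On the opposite strand, the peak outside side A was 1.45 on replicate 1 and 1.60 on replicate 2, and the peak outside side B 1.47 and 1.62. Immediately outside side A the opposite strand had 0.44 and 0.41, so the peak there lay at a distance of several probes from the stretch.

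These classes were then set beside those of the other 4 arrays. The stretches were chosen on the inputs of the other baits, which are the denominators of those baits' ratios. The values of the other baits are thus tied directly to the choice. Those of Mtl1-FTP are tied to it through the input shares given above. All are given as a description, with no test. The opposite minus the transcribed strand inside was 0.38 ± 0.03 with Mtl1-FTP (SD, n = 2 arrays) and 0.55 ± 0.15 with the other baits (n = 4, range 0.42 to 0.74). The opposite strand outside side A, minus the transcribed strand inside, was 1.01 ± 0.22 with Mtl1-FTP and 0.99 ± 0.29 with the other baits. Beyond side B this difference was 1.16 ± 0.22 with Mtl1-FTP and 1.14 ± 0.29 with the others. The size of these contrasts depended on how dim spots were treated. With normexp background correction and median centring the difference inside stretches was 0.10 and that beyond side A 0.43 with Mtl1-FTP, and without spots dim in the input the difference inside stretches turned to -0.19.

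The share of enriched probes was counted over all flanks, with or without input, leaving out probes inside or opposite to any stretch. It was also highest on the opposite strand outside the stretches. Of 8901 probes on the opposite strand beyond side A, 24.8% had ratios above 1 with IP above background on both Mtl1-FTP arrays, and of 7195 beyond side B 21.8% did, against the 12.7% of all dense probes. On the transcribed strand the share was 16.8% beyond side A, 14.0% beyond side B and 4.66% inside stretches. Opposite to stretches it was 12.1%, close to the share over all probes. Probes below -1 with input above background made up 3.19% of the transcribed strand and 1.58% of the opposite strand beyond side B, against the 2.54% of all dense probes. Input was above background at 95.8% of the spots of the transcribed strand and at 44.2% of those of the opposite strand beyond side B.

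Among the stretches themselves, 150 (10.6%) were enriched and 62 (4.40%) depleted with Mtl1-FTP, by limma at an adjusted p under 0.05. The median ratio was 0.94 for the enriched and -0.96 for the depleted stretches, and the replicate arrays correlated with an r of 0.880 across the 1409 stretches (rho 0.827). With the array mean as the centre, 99 were enriched and 436 depleted. These counts rest on both arrays together, since 17 stretches were enriched and 4 depleted without replicate 1, and 13 and 0 without replicate 2. The depleted count also changed with the other baits, which lend the fit its spread. It was 29 without either Red1-FTP array and 148 without either Red5-FTP array. With slide as a random block it was 35. Short stretches were enriched more often. Among the shortest, with 10 to 15 probes, 66 of 353 (18.7%) were enriched and 7 depleted, with a median ratio of 0.13 on replicate 1 and 0.29 on replicate 2. Among the longest, with 32 to 139 probes, 10 of 352 (2.84%) were enriched and 22 (6.25%) depleted, with medians of -0.10 and -0.53. The difference between replicates was thus wider for long stretches.

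The 2 highest called stretches had means that differed by less than their standard errors. The stretch from sp40c_33191 to sp40c_33225 had log2 ratios of 4.47 and 4.58 on the Mtl1-FTP arrays, 4.78 and 5.12 on the Red1-FTP arrays, and 3.07 and 4.12 on the Red5-FTP arrays. Its mean with Mtl1-FTP was 4.53 (standard error 0.26, limma adjusted p = 0.000485), a 23.1-fold enrichment. The stretch from sp40c_37327 to sp40c_37363 had 4.62 and 4.20 with Mtl1-FTP (mean 4.41, standard error 0.46, limma adjusted p = 0.00388). Both were thus recovered on all 6 arrays, and their inputs were well above background at 97.2 and 94.7% of the spots on the Mtl1-FTP arrays, so these ratios have measured denominators. The stretches that follow by mean ratio started at sp40c_82767, which is described below, at sp40c_66518, with 3.63 and 3.95, and at sp40c_91473, with 3.54 and 3.39.

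The lowest stretches were measured at full input. The stretch from sp40c_53385 to sp40c_53405 had -1.96 on replicate 1 and -2.77 on replicate 2, with input above background at all of its probes (mean -2.36, standard error 0.26, limma adjusted p = 0.00441). On the other arrays it ranged from -2.14 to -0.30. Nearby on the other strand, the stretch from sp40c_53258 to sp40c_53324 had -1.99 and -2.73 (limma adjusted p = 0.00545). The stretches at sp40c_44297, sp40c_42567 and sp40c_103245 had means of -1.97, -1.88 and -1.77. All 5 were lower on replicate 2 than on replicate 1, as were 924 of all 1409 stretches, and none of the 5 passed without replicate 2 (limma adjusted p 0.0744 to 0.256).

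To find enriched RNAs wherever they lay, runs of at least 8 same-strand probes above a log2 ratio of 1 on both Mtl1-FTP arrays were collected, with gaps of at most 1 probe and IP above background. Their ratios with Mtl1-FTP chose them and are a description. There were 534 enriched runs, 239 on odd and 295 on even numbers, with a median of 11 probes and a longest of 49. Their median ratio was 2.60 on replicate 1 and 2.61 on replicate 2, and 327 were higher on replicate 2. A mean above 2 was found in 437 runs and a mean above 3 in 161. The median share of input spots above background was 52.2%, with 115 runs at 80% or more and 70 at 20% or less. Of the runs, 56 (10.5%) lay mainly on the transcribed strand of a stretch, which holds 24.6% of the dense probes. The opposite strand beyond a stretch, counted over all flanks with or without input, held 108 runs (20.2%), with 10.9% of the probes.

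The arrays of the other baits, which took no part in choosing the runs, gave similar ratios for most of them. In 456 of the 534 runs (85.4%) the mean ratio was above 1 on all 4 of these arrays, against 1477 of 14700 windows (10%). The runs had medians of 2.93 and 2.54 on the Red1-FTP arrays and 2.46 and 2.34 on the Red5-FTP arrays. In 24 runs the mean was above 1 on none of the 4 arrays, and these are described further down.

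**Figure D2:**
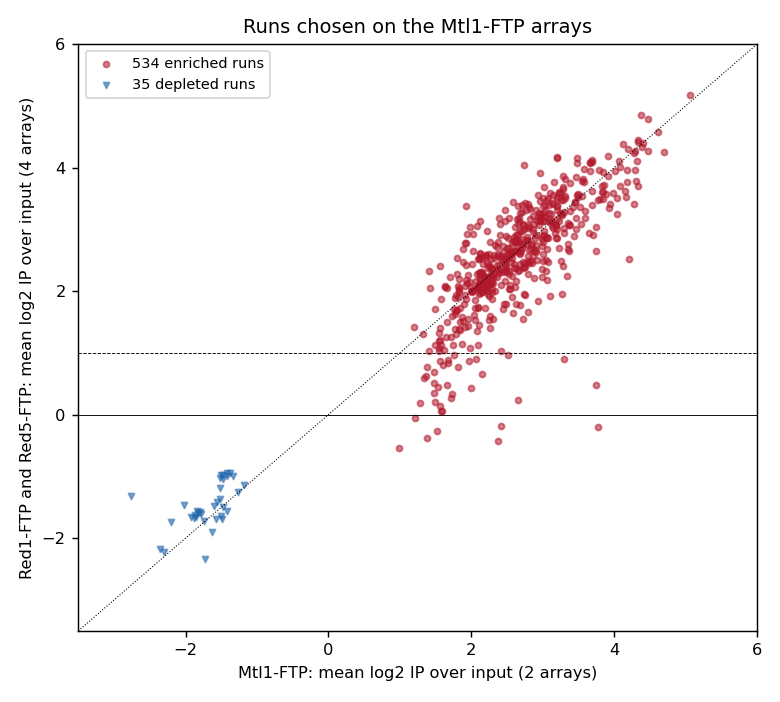
Each point is a run chosen on the Mtl1-FTP arrays, with its mean log2 ratio over the 2 Mtl1-FTP arrays (horizontal axis) against its mean over the 4 Red1-FTP and Red5-FTP arrays (vertical axis). Most of the 534 enriched runs (circles) lie near the dotted line of equal values, a few lie below the dashed line at 1, and all 35 depleted runs (triangles) lie below 0 on both axes.

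The 10 highest runs held 8 to 21 probes. The run from sp40c_125797 to sp40c_125813 (9 probes) had 4.91 and 5.20 with Mtl1-FTP, 5.53 and 4.58 with Red1-FTP, and 5.73 and 4.88 with Red5-FTP. It lay on the opposite strand beyond side B of a stretch, and its input was above background at 27.8% of spots, so its 33.3-fold mean ratio has mostly a background denominator. The run from sp40c_90887 to sp40c_90903 (9 probes, 4.52 and 4.87 with Mtl1-FTP) had no input spot above background, and in the run from sp40c_8956 to sp40c_8996 (21 probes, 4.14 and 5.07) 57.1% were. These high ratios thus differ in how well their denominators were measured.

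Among the 10, the inputs of 3 runs were above background at more than 80% of spots. The run from sp40c_33191 to sp40c_33227 is the stretch given above. The run from sp40c_51027 to sp40c_51047 (11 probes) had 4.24 and 4.42 with Mtl1-FTP, with 95.5% of input spots above background. The run from sp40c_111655 to sp40c_111683 (15 probes) had 4.23 and 4.51, with 83.3%. All 3 had their highest value on Red1-FTP replicate 2, at 5.13 for the run at sp40c_33191, 5.66 for sp40c_51027 and 5.25 for sp40c_111655. The other runs of the 10 started at sp40c_49032, sp40c_24235, sp40c_124726 and sp40c_11226, with means of 4.47, 4.40, 4.38 and 4.34. On none of the 10 did the Mtl1-FTP arrays both lie above all arrays of the other baits.

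**Figure D3:**
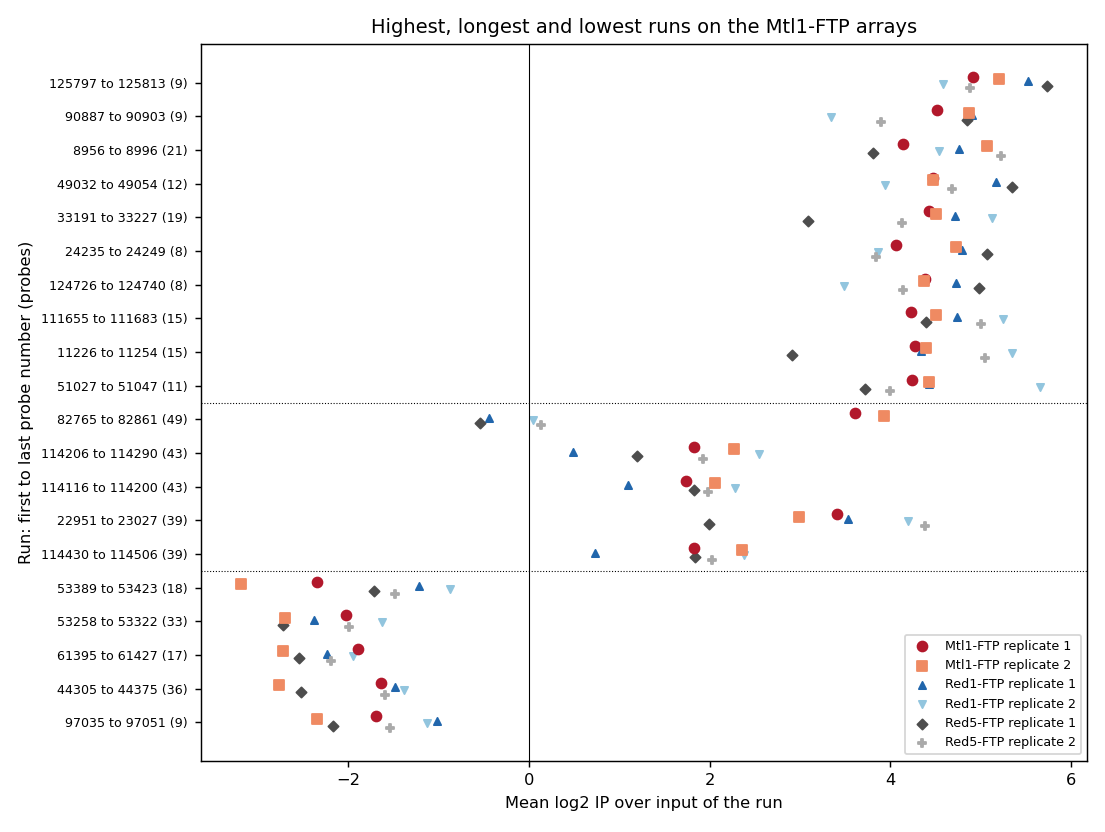
Mean log2 IP over input (horizontal axis) of the 10 highest enriched runs (top), the 5 longest enriched runs (middle) and the 5 lowest depleted runs (bottom), 1 mark per array. In the longest run, 82765 to 82861, the Mtl1-FTP arrays sit at 3.61 and 3.93 and the 4 arrays of the other baits between -0.54 and 0.13.

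The longest runs fell into 3 groups. The run from sp40c_22951 to sp40c_23027 (39 probes) had 3.41 and 2.99 with Mtl1-FTP, 3.54 and 4.19 with Red1-FTP, and 1.99 and 4.38 with Red5-FTP. A cluster on even numbers gave 3 of the 5 longest runs, at sp40c_114116 (43 probes), sp40c_114206 (43 probes) and sp40c_114430 (39 probes). The longest run of all, at sp40c_82765, stood apart from the other baits.

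The cluster on even numbers was the region with the densest enrichment. Of 147 bins of 1000 consecutive probes, the bin from 114001 to 115000 had 36.0% enriched probes on both Mtl1-FTP arrays, against a median of 12.2% and a next highest of 21.3%. On even numbers the share was 48.0% and on odd numbers 24.0%, and 12 enriched runs started in it. Its mean ratio was 0.95 on replicate 1 and 1.12 on replicate 2, against 0.71 and 1.20 with Red1-FTP and 0.95 and 0.89 with Red5-FTP, so the Mtl1-FTP values fell within the range of the others. The run at sp40c_114206 had 1.83 and 2.27 with Mtl1-FTP, 0.49 and 2.55 with Red1-FTP, and 1.19 and 1.93 with Red5-FTP. Its input signal was among the brightest of the array, with a mean log2 of 15.2 on replicate 1 and 14.6 on replicate 2, against medians of 5.10 and 6.11 over the dense probes. Of the even-numbered probes of the bin, 40.6% on replicate 1 and 37.4% on replicate 2 lay above the 99th percentile of input, and of the odd-numbered ones 6% and 1.4%. This RNA was thus abundant in the input and enriched in the IP, unlike most of the abundant probes of decile 10. Input signals of the odd and even strands in this bin correlated at an r of 0.65, where the median bin had a negative value, and the part of signal shared between strands was not tested.

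**Figure D4:**
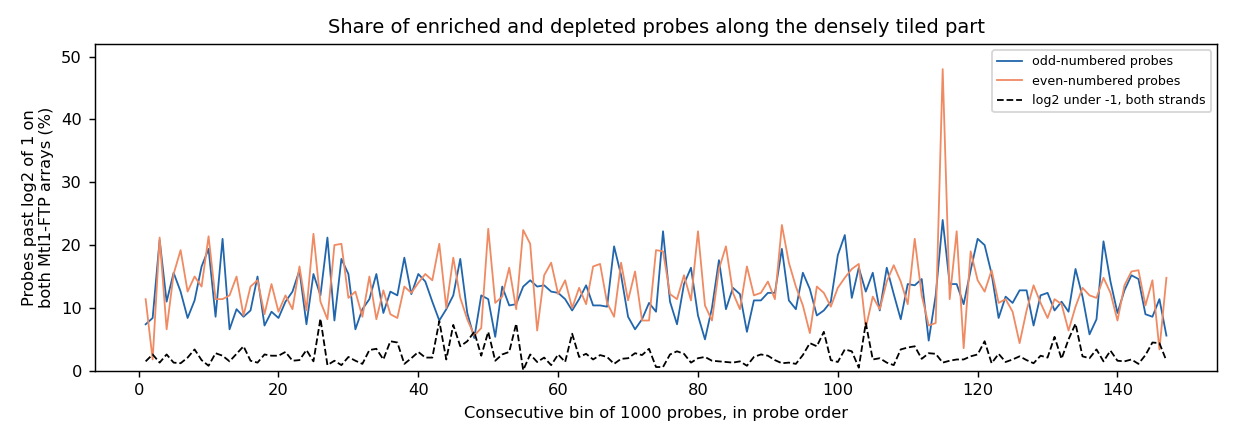
Percentage of probes (vertical axis) with a log2 ratio above 1 on both Mtl1-FTP arrays, for odd and even numbers, and below -1 (dashed, both strands), in 147 consecutive bins of 1000 probes (horizontal axis). The single tall peak is the bin from 114001 to 115000, where 48.0% of the even-numbered probes were enriched.

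The longest run, from sp40c_82765 to sp40c_82861, held 49 odd-numbered probes. Its mean log2 ratio was 3.61 and 3.93 on the Mtl1-FTP arrays, -0.44 and 0.05 on the Red1-FTP arrays, and -0.54 and 0.13 on the Red5-FTP arrays. On each Mtl1-FTP array 48 of the 49 probes were above 1, and on the other arrays 0 to 2 were. The input had a mean log2 signal of 6.70 and 7.24 with Mtl1-FTP and of 6.88 to 7.95 with the other baits, whereas the IP had 10.3 and 11.2 with Mtl1-FTP and 6.66 to 8.08 with the other baits. The run was chosen on its Mtl1-FTP ratios and singled out for its distance from the other baits, so these values are a description. The 12 odd-numbered probes before the run had means of 0.46 and 0.54 with Mtl1-FTP, and the median within the run was 4.02 on replicate 1 and 4.32 on replicate 2.

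The opposite strand of this run was also higher with Mtl1-FTP. Of its 48 even-numbered probes, 39 on replicate 1 and 38 on replicate 2 had ratios above 1, and 12 to 24 did on the other arrays. The mean was 2.61 and 2.59 with Mtl1-FTP and 0.54 to 0.98 with the other baits. A pair of enriched runs lay there, from sp40c_82776 to sp40c_82790 (3.86 and 3.63 with Mtl1-FTP) and from sp40c_82814 to sp40c_82834 (3.39 and 3.20). With the other baits the run at sp40c_82776 had means of 0.11 to 0.81. The run at sp40c_82814 had a mean above 1 on at least 1 of their arrays. Input on this strand was above background at 12.5% of the spots of the run at sp40c_82776 and 40.9% of those of the run at sp40c_82814 on the Mtl1-FTP arrays, so these ratios are less well measured than those of the odd-numbered strand.

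**Figure D5:**
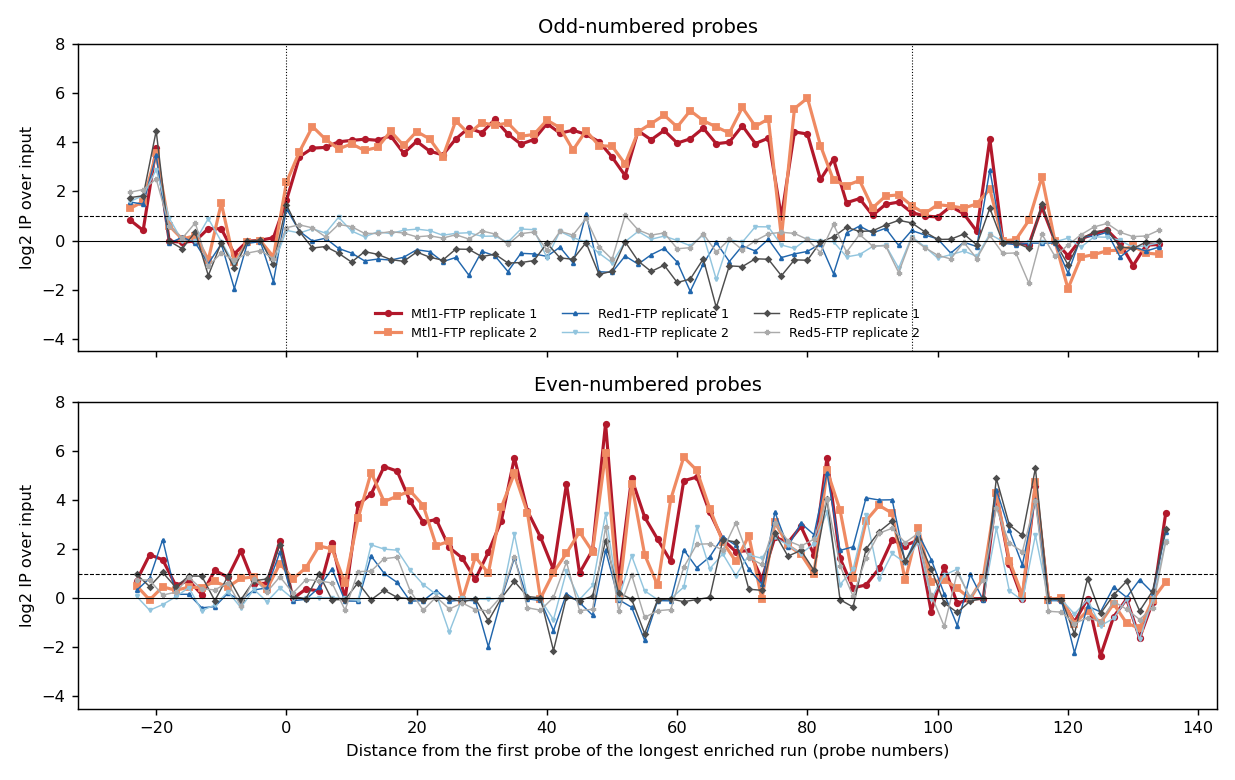
Log2 IP over input of single probes (vertical axis) by distance in probe numbers from the first probe of the longest enriched run (horizontal axis), on odd (top) and even (bottom) numbers, 1 line per array. Dotted lines mark the ends of the run, within which both Mtl1-FTP arrays stay near 4 over most of its length on the odd strand. The other 4 arrays have medians of -0.70 to 0.24 there, lowest on replicate 1 of Red1-FTP and Red5-FTP.

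Whether any RNA was recovered to a different degree with Mtl1-FTP was tested with limma as the Mtl1-FTP coefficient minus the mean of the Red1-FTP and Red5-FTP coefficients. Of 14700 windows, 7 (0.0476%) were higher with Mtl1-FTP and 0 lower at an adjusted p under 0.05, against 539 higher and 390 lower at an unadjusted p under 0.05. With limma on single probes, 0 differed in either direction, against 5973 higher and 5801 lower at an unadjusted p under 0.05. Of the 7 windows, 6 belonged to the position of the longest run. The window at sp40c_82821 had 4.20 and 4.87 with Mtl1-FTP and -1.26 to -0.02 with the other baits, a difference of 5.02 (standard error 0.38, limma adjusted p = 0.00504). The other 4 odd-numbered windows, at sp40c_82761, sp40c_82781, sp40c_82801 and sp40c_82841, differed by 2.66 to 4.49, and the even-numbered window at sp40c_82782 by 2.78 (limma adjusted p 0.00504 to 0.00532). Within slide 1, which held replicate 1 of all 3 baits, Mtl1-FTP exceeded the mean of the other baits by 5.14 at sp40c_82821. Without either Mtl1-FTP array no window passed, although the difference at sp40c_82821 was 5.35 without replicate 1 and 4.69 without replicate 2 (limma adjusted p = 0.0941 and 0.175).

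The remaining window, at sp40c_125942 on even numbers, had 1.90 and 2.17 with Mtl1-FTP, -0.52 and -0.18 with Red1-FTP, and -0.45 and 0.18 with Red5-FTP. Its difference was 2.27 (standard error 0.26, limma adjusted p = 0.0429) and 2.38 within slide 1. It lost the call in 8 alternatives, among them the array mean as the centre (limma adjusted p = 0.0575) and the fit without Red5-FTP replicate 1 (limma adjusted p = 0.0762). Input was above background at 65.0% of its spots with Mtl1-FTP, and the enriched run from sp40c_125946 to sp40c_125960 lay within it, on the same probes.

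Among the 1409 stretches, 2 (0.142%) were higher with Mtl1-FTP than with the other baits, and with limma 0 were lower (104 higher and 30 lower at an unadjusted p under 0.05). With slide as a random block 15 were higher. The choice of stretches on the inputs of the other baits bears on this comparison too, and its part was not tested. The stretch from sp40c_82767 to sp40c_82845 is the plateau of the longest run, with 4.02 and 4.32 with Mtl1-FTP and -0.78 to 0.19 with the others (difference 4.44, standard error 0.34, limma adjusted p = 0.00568). The other was a short stretch of 11 even-numbered probes from sp40c_116730 to sp40c_116750. It had 2.14 and 2.25 with Mtl1-FTP, 0.14 and 0.22 with Red1-FTP, and -0.0021 and -0.05 with Red5-FTP. The difference was 2.12 (standard error 0.16, limma adjusted p = 0.00568), a 4.35-fold difference, and 2.07 within slide 1. Its input was above background at 90.9% of the spots on the Mtl1-FTP arrays. Neither stretch passed without Mtl1-FTP replicate 1 or without replicate 2 (limma adjusted p 0.0845 to 0.165).

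The 24 enriched runs that stayed at or below a mean of 1 on all 4 other arrays included these positions. Of the 24, 14 lay mainly on the transcribed strand of a stretch, against 56 (10.5%) of all 534 runs. In 19 the input was above background at 80% or more of the spots on the Mtl1-FTP arrays, against 115 of all 534. The 24 were picked for low ratios on the 4 other arrays, whose inputs also define the stretches. The choice and the class are thus not independent, and these counts are a description. Outside these positions, the widest gap was at sp40c_132705 to sp40c_132719 (8 probes), with 2.38 and 2.37 with Mtl1-FTP, -0.71 and -0.12 with Red1-FTP, and -0.68 and -0.22 with Red5-FTP. The run from sp40c_37653 to sp40c_37671 (10 probes) had 1.40 and 1.37 with Mtl1-FTP and -0.57 to -0.19 with the others, and the run from sp40c_68299 to sp40c_68313 (8 probes) had 1.34 and 1.71 against -0.66 to -0.06. These 3 runs were picked from their values on all arrays and were not tested.

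Depleted runs were fewer. With ratios below -1 and input above background on both arrays, 35 runs of at least 8 probes were found, with a median of 13 probes and a longest of 36. Of these, 26 (74.3%) lay mainly on the transcribed strand of a stretch, which holds 24.6% of the dense probes. The requirement of input favours that class, since input was above background at 95.8% of its spots and at 52.2% of all dense spots. Their median ratio was -1.29 on replicate 1 and -1.95 on replicate 2, and all 35 were lower on replicate 2. The arrays of the other baits had medians of -1.57 and -1.03 (Red1-FTP) and -1.98 and -1.38 (Red5-FTP). All 35 had means below 0 on all 4 of these arrays, against 18.9% of windows, and 17 had means below -1 on all 4, against 0.34% of windows.

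The lowest run, from sp40c_53389 to sp40c_53423 (18 probes), had -2.34 and -3.19 with Mtl1-FTP, -1.22 and -0.88 with Red1-FTP, and -1.72 and -1.48 with Red5-FTP. Both Mtl1-FTP arrays lay below the others, but the stretch at sp40c_53385 that overlaps it did not pass the test of the difference (-1.14, standard error 0.32, limma adjusted p = 0.324). Its input had a mean log2 signal of 8.38 and 9.16 and its IP 6.04 and 5.97 on the Mtl1-FTP arrays. On the Red1-FTP arrays the input was 8.51 and 7.80, and on the Red5-FTP arrays, whose ratios thus rest on a dimmer input, 6.49 and 6.10. The run from sp40c_53258 to sp40c_53322 (33 probes) had -2.03 and -2.70 with Mtl1-FTP and -2.73 to -1.62 with the others, a shared depletion. The runs at sp40c_61395, sp40c_44305 and sp40c_97035 had means of -2.31, -2.20 and -2.02 with Mtl1-FTP and were also below -1 on all other arrays.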

How the data were processed

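Cy5-labelled purified RNA and Cy3-labelled total RNA of the same strain were hybridised to custom Agilent 2-colour tiling arrays by the authors, 2 biological replicates per bait with 1 array each. Scanner output of Agilent Feature Extraction 10.7.3.1 was deposited by the authors. Its processed intensities, as deposited, had the background subtracted and the dyes normalized by that software, with an error estimate in place of values near background. Intensities before these steps (spot and local background medians) were deposited too. Each spot also has a deposited log10 ratio of the dyes and a p-value from the error model. A further table deposited by the authors gives log2 values of IP over input, without centring, and 0 at every p-value of 0.05 or above. No genome coordinates or gene annotation were used here.

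The log2 of processed Cy5 over processed Cy3 was centred on each array's median over its non-control probes (-0.28 and -0.12 on the Mtl1-FTP arrays). Outlier spots, 3 and 6 tiles on these arrays, were left out. No loess or quantile step was applied. IP signals were shifted by the array centre, so that IP minus input gives the ratio. Windows of 10 same-strand probes needed at least 5 values. Stretches allowed gaps of 1 probe and at most 30% of the opposite strand detected, and flanks at most 30% on either strand. Windows, probes and stretches were fitted with limma 3.58.1 (R 4.3.3) over all 6 arrays, with 1 coefficient per bait, moderated variances and Benjamini-Hochberg adjustment over all features at 0.05. The fit was also run on 14700 simulated windows with independent noise, 200 of them changed. It recovered 98% of changes at a log2 of 1 and 100% at a log2 of 2, with 18 false calls. The simulation had no slides, dim spots or shifts between replicates, so it does not show how the fit performs on these arrays. Everything else was computed with Python 3.11.15. Named in the text are the 10 highest and 5 longest enriched runs, the 5 lowest depleted runs, the 5 highest and 5 lowest called stretches of 1 sign on both arrays, and up to 10 windows that differed from the other baits. Other items were chosen after their values were seen. The members, lists and tests were chosen with earlier results of these data known.

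Slide 1 held replicate 1 of all baits, slide 2 Mtl1-FTP replicate 2 and slide 3 the others. The number of arrays limits the precision. Alternatives covered the centre, background correction, dim spots, the value table, blocks, window and run settings, and leaving out arrays.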

Additional observations from a re-analysis of the deposited data

Results flagged for a closer look

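Mtl1-FTP was higher than the other baits by limma's test of the difference at 7 windows (0.0476% of 14700) and 2 stretches (0.142% of 1409). They were chosen on this difference, and their values below are a description. On odd numbers the differences were 2.90 at the window sp40c_82761, 4.49 at sp40c_82781, 4.37 at sp40c_82801, 5.02 at sp40c_82821 and 2.66 at sp40c_82841, and opposite to them 2.78 at sp40c_82782. The stretch at sp40c_82767, which covers part of the odd-numbered windows, differed by 4.44. Elsewhere the window at sp40c_125942 differed by 2.27 and the stretch at sp40c_116730 by 2.12. Groups of 2 arrays were too small for a test of single outlying arrays.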

How the results depend on the processing

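With the array mean as the centre, depleted windows numbered 3287, depleted probes 15898, enriched stretches 99, depleted stretches 436 and depleted runs 159. With normexp and median centring there were 2625 enriched windows, 94 depleted stretches, 4 stretches higher than with the other baits, 221 enriched and 13 depleted runs. Normexp with loess gave 4 windows higher than with the other baits, 189 enriched and 12 depleted runs. Signals before dye normalization gave 2599 enriched windows, 14286 enriched probes, 181 depleted stretches, 93 depleted runs and 0 windows higher than with the other baits. Without spots dim in the input there were 736 enriched and 403 depleted windows, 7745 enriched probes and 145 enriched runs, over fewer features tested. The series value table, whose many zeros give some features no variance, gave 2680 enriched windows, 6302 enriched and 2288 depleted probes, 83 enriched and 170 depleted stretches, and 0 windows higher than with the other baits. Only the Mtl1-FTP arrays in the fit gave 1736 depleted windows, 5977 enriched and 96 depleted probes, and 250 enriched and 252 depleted stretches. Tested against a log2 of 1, 742 windows were enriched and 8 depleted, 10700 probes enriched and 293 depleted, and 15 stretches enriched and 0 depleted. Windows of 5 probes gave 6921 enriched, 1725 depleted and 16 higher than with the other baits, and windows of 20 probes 2426 enriched and 443 depleted, of different totals. Stretches of at least 20 probes gave 45 enriched, 24 depleted and 1 higher than with the other baits.

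Slide as a random block gave 35 depleted stretches and 15 stretches higher than with the other baits. With replicate number as a block (replicate block), 22 stretches were depleted, against 62, and no other count of calls moved by over 1.5 times. Deviations of same-numbered arrays correlated at -0.54 between Mtl1-FTP and Red1-FTP, -0.55 between Mtl1-FTP and Red5-FTP and 0.67 between Red1-FTP and Red5-FTP, so the number does not pair the arrays of all baits. Same-numbered arrays of Red1-FTP and Red5-FTP also share slides.

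Leaving out 1 array gave 1752 to 4428 enriched and 23 to 1234 depleted windows, 12690 to 13198 enriched and 784 to 2331 depleted probes, 13 to 186 enriched and 0 to 148 depleted stretches, 0 to 9 windows higher and 0 to 1 lower than with the other baits, and 0 to 4 stretches higher. Runs numbered 848 enriched and 321 depleted without Mtl1-FTP replicate 1, and 705 and 46 without replicate 2. In these fits the lone array is assumed to vary like the other groups.

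Among the class contrasts, the opposite minus the transcribed strand inside stretches was 0.10 with normexp, 0.068 with normexp and loess, 0.72 before dye normalization, 0.50 in stretches of at least 20 probes and -0.19 without dim spots. The opposite strand outside side A, minus the transcribed strand inside, was 0.43, 0.41, 1.64 and 1.28 in the same order, and 0.77 without dim spots. Beyond side B it was 0.53 with normexp, 0.50 with normexp and loess, 1.87 before dye normalization and 0.47 with all flanks. For the transcribed strand beyond side B minus inside, these 4 settings gave 0.17, 0.16, 0.94 and 0.27, dim spots left out gave 0.24 and stretches of at least 20 probes 0.68. The side A end minus the side B end was 0.23 with normexp and with loess. Beyond side A minus inside, the opposite strand had 0.33 with normexp, 0.34 with loess, 0.92 before dye normalization and 0.95 without dim spots. Leaving out an Mtl1-FTP array gave 0.36 to 0.41, 0.86 to 1.17, 1.01 to 1.31, 0.39 to 0.63, 0.27 to 0.40 and 0.45 to 0.81 for these 6 contrasts.

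Of enriched runs, 839 passed a log2 of 0.5, 1265 had at least 5 probes, 238 at least 12, and 263 had no gaps. Of depleted runs, 266 passed 0.5, 8 passed 1.5, 89 had at least 5 probes, 20 at least 12, and 16 had no gaps. Of the 7 windows that differed from the other baits, none reversed in any alternative, and 34 of 96 single alternatives lost the call. The alternatives for the stretches that differed from the other baits, and those that left out a Red1-FTP or Red5-FTP array for the calls of Mtl1-FTP alone, were chosen after seeing the data. The cause of these changes was not tested. Dim input limits the ratios of the flanks and of the opposite strand.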

Other observations

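A set of 7 depleted runs had nearly the same pattern over the 6 arrays, although they lay at 5 separate places in probe order, 2 of which held 2 neighbouring runs each. They started at sp40c_45826, sp40c_49679, sp40c_110909, sp40c_110939, sp40c_120364, sp40c_133438 and sp40c_133466, and were picked for a Red5-FTP replicate 2 ratio above -0.5, after the values were seen. Their ratios were -1.29 to -1.15 on Mtl1-FTP replicate 1 and -1.76 to -1.60 on replicate 2. On the Red1-FTP arrays they were -1.60 to -1.37 and -0.74 to -0.55, and on the Red5-FTP arrays -1.46 to -1.26 and -0.49 to -0.41. The other 28 depleted runs ranged from -2.34 to -0.92 on Mtl1-FTP replicate 1, and from -2.19 to -0.88 on Red5-FTP replicate 2. Input of the 7 runs had mean log2 signals of at least 9.08 on Mtl1-FTP replicate 1. Whether their probes share sequence was not tested, because no probe sequence was analysed here.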
